A study of Mus musculus with 27 samples.

Results

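Serpinb2, Plau, Plaur, Mmp9, Mmp12, Mmp13, Mmp14, Timp1 and Thbs1 encode secreted or cell-surface proteases, their inhibitors and receptor, and the matrix protein thrombospondin. They were taken by symbol from a table of read counts, as 9 of its 55483 genes, and each symbol matched 1 row. Serpinb2 and Thbs1 were chosen by their large fold changes between treatments in these same libraries. Their values are described here with no test, and counts of members that passed a test are over the other 7. Those 7 were taken by name, but with earlier results of these data known, so such counts are not those of a blind choice. The cells were RAW264.7, an established mouse macrophage line, harvested after 6 h. One treatment was DMSO, the solvent. The second was LPS (lipopolysaccharide, a bacterial cell wall component that activates macrophages) at 1 µg/ml with DMSO. The third was the same LPS with TM7nox, a tanshinone mimic, at 10 µM. Tanshinone mimics are small molecules designed to disturb the binding of RNA by HuR, the RNA-binding protein encoded by Elavl1. Total RNA and RNA recovered with an anti-HuR antibody (ribonucleoprotein immunoprecipitation, RIP) were each read in 4 libraries for every treatment. A control IgG precipitation was read in 1 library for each, always replicate 3. The labels do not say that replicates came from separate cultures, so the tests measure only the spread between these samples. A single line was used, and TM7nox was not given without LPS in the libraries used here.

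Plau is urokinase, a serine protease that cleaves plasminogen into plasmin. Plaur is its receptor and holds it at the cell surface. Serpinb2 is plasminogen activator inhibitor type 2, which blocks urokinase and is long known as a transcript that activated macrophages make in quantity. Plasmin and the matrix metalloproteinases degrade fibrin and matrix. Mmp9 is a gelatinase, Mmp12 the macrophage elastase, Mmp13 a collagenase and Mmp14 a membrane-bound metalloproteinase that activates others, and Timp1 inhibits such enzymes. Thbs1 is thrombospondin 1, a secreted glycoprotein that binds cell-surface receptors and activates latent TGF-beta. HuR binds U-rich and AU-rich stretches, mostly in 3′ untranslated regions (UTRs), and several mRNAs of this group are known as AU-rich.

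The cells carried macrophage transcripts: 9 of the 10 macrophage markers listed exceeded 1 CPM (counts scaled to a common library size) in at least 1 total RNA library, and Marco did not. No marker of B cells, T cells, epithelial cells or fibroblasts did, and of 4 endothelial markers 2 did. The summed level of the 6 neutrophil markers ranged from 0 to 0.232 CPM in DMSO and from 1.62 to 3.51 CPM in LPS. It ranged from 0.190 to 0.477 CPM when TM7nox was added, and Ly6g and S100a9 stood at 0 throughout. Of the 6, only S100a8 exceeded 1 CPM (3.21 in its highest library), and Mpo, Cxcr2 and Elane reached 0.299 CPM at most. The part of these markers in the results was not tested. The total RNA libraries held 2.73 to 28.3 M counts, the RIP libraries 19.8 to 41.4 M and the IgG libraries 8.87 to 24.5 M. The shallowest was DMSO replicate 1 of total RNA.

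The sequences around the AU-rich pentamer are shown first, since HuR is the protein precipitated. The 3′ UTR was read from the canonical GENCODE M39 transcript on GRCm39, on the transcript strand. Among 10518 coding genes tested with a 3′ UTR of at least 50 bases, 73.8% held the pentamer ATTTA and 9.32% held the nonamer TTATTTATT, which contains it. Each line below gives the 30 bases richest in these motifs (the first such stretch where several tied), with the motif in capitals.

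Serpinb2: tttttacagtgTTATTTATTgtttatataa
Thbs1: gtaaatacagaTTATTTATTaaccctgttc
Plau: ctacatacttaatATTTAataattatgttc
Plaur: tgttattgctctaATTTAttatataaatat
Mmp9: ctccagcccttTTATTTATTatgtatgagg
Mmp12: tattATTTAtattaaagtgttATTTAgctg
Mmp13: tttaaaagttgttATTTAtctcccagagag

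All members lie on the plus strand. These stretches are at chr1:107452926-107452955 (Serpinb2), chr2:117956635-117956664 (Thbs1), chr14:20893357-20893386 (Plau), chr7:24175101-24175130 (Plaur), chr2:164797213-164797242 (Mmp9), chr9:7360346-7360375 (Mmp12) and chr9:7282124-7282153 (Mmp13). Serpinb2 had the densest 3′ UTR, with 6 pentamers in 658 bases (9.12 per kb), and 98.9% of the coding genes had a lower density. Mmp9 followed with 5 in 945 bases (5.29 per kb, above 95.2% of genes), then Mmp13 with 6 in 1213 (4.95 per kb, above 94.3%) and Plaur with 2 in 496 (4.03 per kb, above 90.0%). Thbs1 had 6 in 2106 bases (2.85 per kb), Mmp12 6 in 2134 (2.81 per kb) and Plau 2 in 935 (2.14 per kb), against a median of 1.39 per kb over all genes. Mmp14 (593 bases) and Timp1 (101 bases) held none. The nonamer was present once each in Serpinb2, Thbs1 and Mmp9. The share of U was highest in Serpinb2 at 37.5%, above 97.1% of genes, and lowest in Mmp14 at 22.4%, above 6.42%.

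For 6 members the RefSeq promoter table (GRCm38.p6) held a start site, in 8 entries. Thbs1, Plau and Mmp9 had no entry. The 250 bases before each start were searched on both strands for the AP-1 motif TGACTCA, the CRE motif TGACGTCA and the NF-kB consensus. AP-1 and NF-kB are factors that LPS activates in macrophages, which is why these windows are shown. The 3 entries with a match are given with the motif in capitals (on the reverse strand it reads TGAGTCA).

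Plaur: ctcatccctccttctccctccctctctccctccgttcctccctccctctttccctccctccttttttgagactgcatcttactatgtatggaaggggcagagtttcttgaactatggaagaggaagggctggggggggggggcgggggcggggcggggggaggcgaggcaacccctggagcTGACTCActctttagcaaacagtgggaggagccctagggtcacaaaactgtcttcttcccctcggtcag
Mmp13: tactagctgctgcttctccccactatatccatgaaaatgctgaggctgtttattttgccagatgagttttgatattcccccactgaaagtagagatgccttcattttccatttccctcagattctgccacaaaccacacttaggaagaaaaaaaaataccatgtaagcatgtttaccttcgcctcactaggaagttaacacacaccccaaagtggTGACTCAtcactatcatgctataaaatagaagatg
Mmp12: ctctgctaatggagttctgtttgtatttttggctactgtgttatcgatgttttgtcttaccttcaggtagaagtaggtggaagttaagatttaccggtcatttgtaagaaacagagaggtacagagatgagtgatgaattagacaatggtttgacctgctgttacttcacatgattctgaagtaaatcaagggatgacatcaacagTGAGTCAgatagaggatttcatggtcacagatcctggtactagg

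The Plaur window is at chr7:24462233-24462482 (plus strand), the Mmp13 window at chr9:7272264-7272513 (plus strand) and the Mmp12 window, which is the more downstream of that gene's 2 entries, at chr9:7347124-7347373 (plus strand). The last base of the AP-1 motif stood 63 bases before the start in Plaur, 29 in Mmp13 and 38 in Mmp12. Of 32851 promoter windows of this length, 4.46% held the AP-1 motif, 1.55% the CRE motif and 3.9% the NF-kB consensus. The other 5 entries, of Serpinb2, Mmp12, Mmp14 and Timp1, held no match to any of the 3 motifs in this window. A match describes letters and was not tested as a site.

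Levels between genes were compared as CPM per kb of exon. In DMSO, Plau led with a mean of 86.8 CPM per kb (SD 62.5, n = 4), ahead of Plaur at 8.35 (SD 3.96), Mmp9 at 1.05 (SD 0.561) and Mmp12 at 0.338 (SD 0.285). The other 5 members had means of at most 0.0199. In LPS, Plaur led with 134.5 CPM per kb (SD 18.1), well above the next member. Serpinb2 at 26.8 (SD 11.5), Plau at 21.1 (SD 8.14) and Mmp9 at 19.9 (SD 5.25) did not differ beyond their spread. Timp1 stood at 8.87 (SD 0.492), Mmp14 at 2.20 (SD 0.826) and Mmp13 at 1.19 (SD 0.844), and Thbs1 at 0.421 (SD 0.383) and Mmp12 at 0.313 (SD 0.151) were last and overlapped. With TM7nox added, Plaur at 90.6 (SD 19.2) and Plau at 35.1 (SD 6.74) led, and Mmp9 at 6.15 (SD 2.07) and Serpinb2 at 5.70 (SD 3.32) overlapped.

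**Figure D1:**
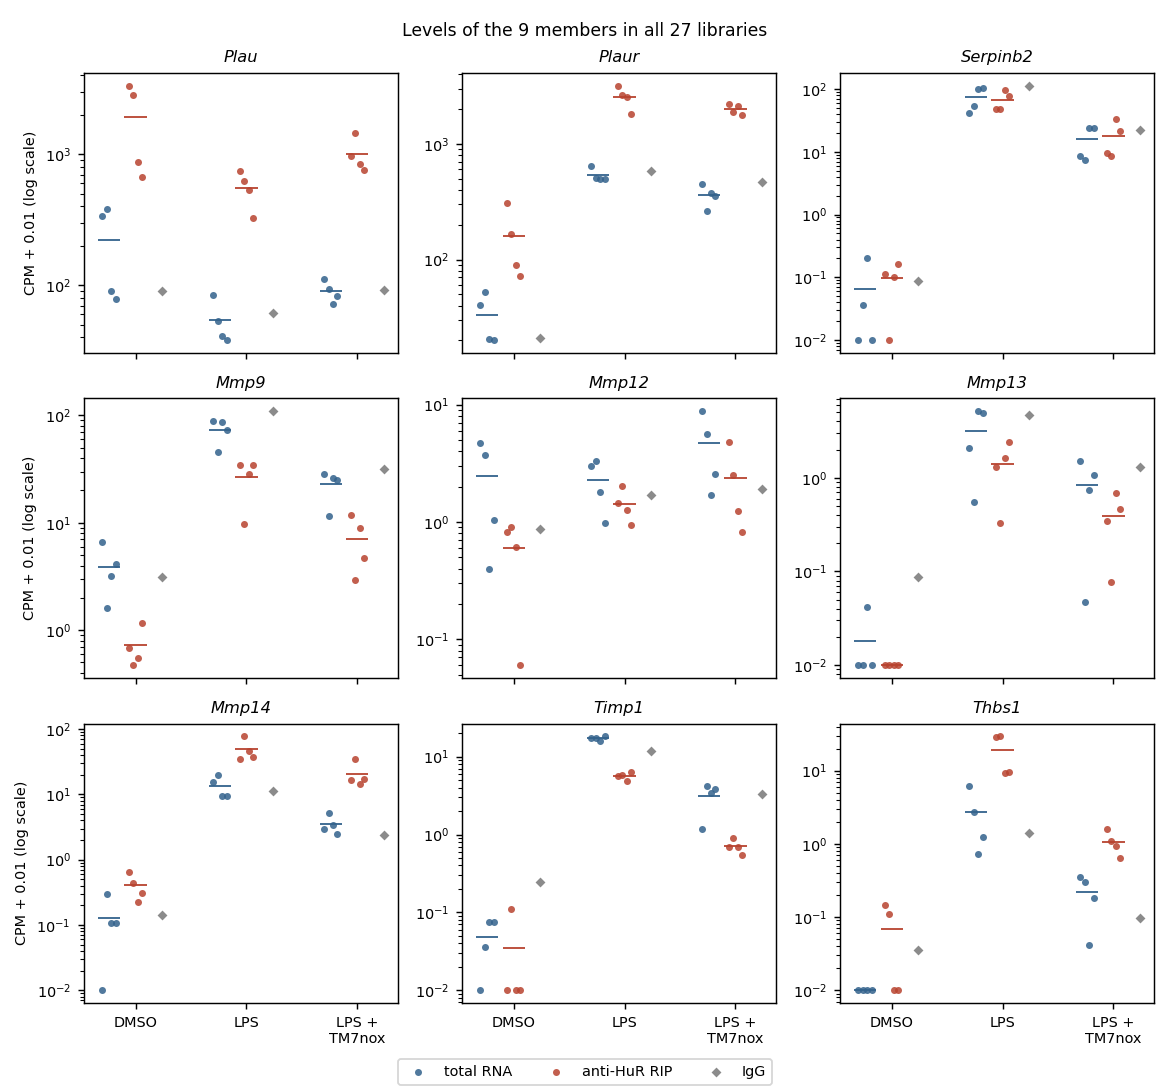
CPM plus 0.01 on a log axis for each of the 9 members, by treatment, in total RNA (blue), anti-HuR RIP (red) and IgG (grey diamonds); each point is 1 library and bars are means of 4. In total RNA the LPS points lie above all DMSO points for Plaur, Serpinb2, Mmp9, Mmp13, Mmp14, Timp1 and Thbs1, while Plau is lower in 3 of the 4 LPS libraries than in any DMSO library.

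LPS raised most of these transcripts in total RNA. In a bulk sample, the share of cells that make a transcript and the amount per cell cannot be told apart. Of the 7 members tested against DMSO, 5 were called higher (Plaur, Mmp9, Mmp13, Mmp14 and Timp1), Plau fell and Mmp12 did not pass. Across all 12369 genes tested, 42% passed the same test, 20.2% higher and 21.7% lower. All 9 members passed the filter on low counts, but Mmp13, Mmp14 and Timp1, like Serpinb2 and Thbs1, had no DMSO library at the level it asks for (0.45 CPM) and entered only through the LPS-treated groups. Their being higher there was fixed by that entry, so the count of 5 is not read against the share of all genes. The test was edgeR's quasi-likelihood test with Benjamini-Hochberg adjustment (FDR) over all genes, called under 0.05. Fold changes are fitted log2 values with a standard error (SE). This SE is the size of the fitted change divided by the square root of the test's F statistic. It is approximate, and unreliable for genes with few counts.

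Plau (chr14:20886722-20893453 on GRCm39, 11 exons) was the one member that fell. It stood at 337, 384, 91.2 and 78.7 CPM in the DMSO libraries of replicates 1 to 4, and at 83.9, 53.5, 41.0 and 38.3 CPM in LPS. Replicates 1 and 2 were far above the others in DMSO, and LPS was lower than DMSO in 4 of 4 same-numbered pairs, with ratios of 0.139 to 0.487. The fitted change was -2.07 (SE 0.463, FDR 0.00238). It was -2.38 in replicates 1 and 2 alone and -1.09 in replicates 3 and 4 alone, and passed in each (FDR 0.000507 and 1.09e-05).

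Plaur (chr7:24161875-24175394, 7 exons), the receptor of urokinase, moved the other way. It stood at 40.5, 52.4, 20.5 and 20.2 CPM in DMSO and at 646, 509, 501 and 495 CPM in LPS. The groups were far apart, and the fitted change was 3.99 (SE 0.311, FDR 2.15e-07), a 15.9-fold rise. LPS replicate 1 stood above the other 3, which lay close together.

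Serpinb2 (chr1:107428593-107463208, 8 exons) had 7 counts over the 4 DMSO libraries and 9027 over the 4 LPS libraries. Its levels were 0, 0.0257, 0.193 and 0 CPM in DMSO and 42.2, 54.2, 102 and 106 CPM in LPS. The inhibitor of urokinase was near 0 in DMSO, and replicates 3 and 4 were the higher ones in LPS. The fitted change was 10.04 (SE 0.748), and it was 12.02 without DMSO replicate 3, which held 6 of the 7 DMSO counts. The gene body of Serpinb2 overlaps Serpinb10 on the same strand, which had 7 and 20 counts in these groups.

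Among the metalloproteinases, Mmp9 (chr2:164780439-164797771, 13 exons) was the most abundant. It stood at 6.57, 1.60, 3.22 and 4.14 CPM in DMSO and at 88.5, 46.1, 86.3 and 73.7 CPM in LPS, with replicate 2 lowest in each. The groups did not overlap, and the change was 4.38 (SE 0.409, FDR 1.21e-06). Mmp14 (chr14:54668878-54682821, 10 exons) stood at 0, 0.283, 0.0965 and 0.0986 CPM in DMSO and at 15.4, 20.0, 9.38 and 9.58 CPM in LPS. It went from 17 counts over the group to 1560. The fitted change was 6.39 (SE 0.473), and 7.15 without DMSO replicate 2, which held 11 of the 17 counts. Mmp14 entered the test only through the LPS-treated groups, so its FDR of 1.31e-07 is not read as support for the rise. Mmp13 (chr9:7272514-7283331, 10 exons) was far scarcer, with 1 count over the DMSO group and 374 over the LPS group. Its LPS levels were 2.05, 0.548, 5.15 and 4.96 CPM, highest in replicates 3 and 4. The ratio of pooled levels was 340, with a 95% counting interval of 60.7 to 13465. The gene passed the test (FDR 0.000219), but not in replicates 1 and 2 alone (FDR 0.105). Since Mmp13 also entered only through the LPS-treated groups, its passing is not read as support for the rise.

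Mmp12 (chr9:7344381-7369499, 10 exons), the macrophage elastase, did not pass the test. It stood at 4.66, 3.71, 0.386 and 1.02 CPM in DMSO and at 2.99, 3.32, 1.79 and 0.967 CPM in LPS, and the groups overlapped. Replicates 1 and 2 were the higher ones in each treatment. The fitted change was 0.01 (SE 0.685, FDR 0.994), which leaves room for changes of more than 1 on the log2 scale in either direction.

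Timp1 (chrX:20736316-20740976, 6 exons), the inhibitor, had 5 counts over the DMSO group, at 0, 0.0257, 0.0643 and 0.0657 CPM. In LPS it stood at 17.6, 17.6, 16.0 and 18.3 CPM, the tightest group of any member. The change was 8.37 (SE 0.485, FDR 1.28e-08). Timp1 lies within Syn1, a gene on the opposite strand that had 62 counts in DMSO and 160 in LPS. Whether counting used the strand is not given in the sources used here.

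Thbs1 (chr2:117941974-117957616, 22 exons) had no count in any of the 4 DMSO libraries of total RNA. In LPS it stood at 6.20, 2.74, 0.721 and 1.22 CPM, higher in replicates 1 and 2 than in 3 and 4. The LPS group held 290 counts of it. Set against a floor of 3 counts over the DMSO group, the pooled LPS level was 87.9-fold higher, and by its 95% lower counting limit it was at least 71.0-fold higher. That limit was 44.2 without LPS replicate 1 and 44.8 without DMSO replicate 2, the deepest DMSO library.

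Adding TM7nox to LPS lowered 3 of the 7 tested members in total RNA: Mmp9, Mmp14 and Timp1. The other 4 did not pass, and 13.8% of all genes did (7.37% higher and 6.4% lower). This comparison and the previous one share the LPS libraries. Mmp9 stood at 28.6, 11.5, 26.0 and 25.1 CPM with TM7nox, below all LPS libraries, with a change of -1.69 (SE 0.347, FDR 0.00488). Mmp14 stood at 2.92, 5.21, 3.42 and 2.46 CPM, and its fitted change was -1.95 (SE 0.332, FDR 0.00138). Timp1 stood at 1.17, 4.18, 3.42 and 3.87 CPM, with replicate 1 lowest, and its fitted change was -2.45 (SE 0.293, FDR 0.000104). For all 3 genes the level was lower in 4 of 4 same-numbered pairs and remained above every DMSO library.

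The same-numbered samples deviated together, so values with the replicate number as a block are given where a call differs. Mmp13 stood at 1.51, 0.0367, 0.728 and 1.06 CPM with TM7nox, lower than LPS in 4 of 4 pairs but with overlapping groups. Its change of -1.94 (SE 0.745, FDR 0.107) did not pass, and with the replicate block it was -2.02 and did (FDR 0.00593). Plaur stood at 452, 265, 375 and 358 CPM, below every LPS library, and its change of -0.57 (SE 0.274, FDR 0.207) did not pass. Plau stood at 112, 94.2, 71.5 and 82.7 CPM, higher than LPS in 4 of 4 pairs by 1.34 to 2.16 times, with a change of 0.73 (SE 0.449, FDR 0.338) that did not pass. Mmp12 stood at 8.79, 5.62, 1.68 and 2.55 CPM, with a change of 1.04 (SE 0.669, FDR 0.366) and overlapping groups.

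Which replicates entered mattered in this comparison. In replicates 3 and 4 alone, 6 of the 7 members passed: Plau at 0.98 (FDR 0.000128), Plaur at -0.42 (FDR 0.00406) and Mmp13 at -2.49 (FDR 0.000211) joined the other 3. In replicates 1 and 2 alone none did, with Timp1 at -2.70 (FDR 0.0577), Mmp14 at -2.12 (FDR 0.0668) and Mmp9 at -1.76 (FDR 0.242). With no filter on low counts, all 7 passed.

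Serpinb2 stood at 8.65, 7.42, 24.3 and 24.4 CPM in LPS with TM7nox, below all 4 LPS libraries, and replicates 3 and 4 were again the higher ones. The same-numbered ratios to LPS were 0.137 to 0.239, and the fitted change was -2.22 (SE 0.426). Thbs1 stood at 0.340, 0.294, 0.0316 and 0.170 CPM, on 20 counts in all. Its ratios to LPS were 0.0439 to 0.140, the fitted change was -3.72 (SE 0.816) and -2.91 without LPS replicate 1, and the pooled level was 6.80-fold above DMSO at the floor of 3 counts. Its 95% lower counting limit over DMSO was 5.04-fold, and 3.18-fold without DMSO replicate 2.

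**Figure D2:**
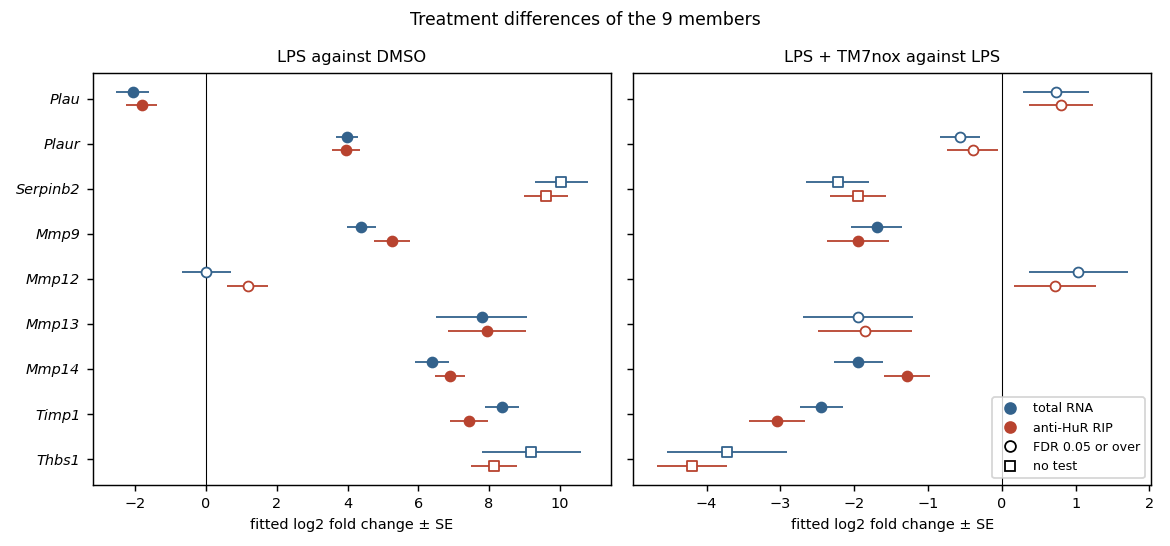
Fitted log2 fold change with its SE for each member in total RNA (blue) and anti-HuR RIP (red), for LPS against DMSO and for LPS with TM7nox against LPS; filled circles passed an FDR of 0.05, open circles did not, and squares had no test. Plau lies left of 0 under LPS (-2.07 in total RNA) and right of it with TM7nox (0.73, which did not pass).

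Against DMSO, the LPS with TM7nox group kept 5 tested members higher and 1 lower, where 47.3% of all genes passed (23.7% higher and 23.6% lower). Mmp13, Mmp14 and Timp1 again entered only through the LPS-treated groups, so their FDRs here are not read as support for a rise. Plaur was higher by 3.42 (SE 0.303, FDR 6.66e-07), Timp1 by 5.92 (SE 0.504, FDR 4.58e-07), Mmp14 by 4.44 (SE 0.472, FDR 3.61e-06; 5.20 without DMSO replicate 2), Mmp9 by 2.69 (SE 0.390, FDR 6.01e-05) and Mmp13 by 5.85 (SE 1.36, FDR 0.00272), the last resting on 1 DMSO count (7.45 without its library, DMSO replicate 3) and lost in replicates 1 and 2 alone (FDR 0.122). Plau was lower by the fit, at -1.34 (SE 0.453, FDR 0.0252). That call was lost without DMSO replicate 1 (FDR 0.0805) or 2 (FDR 0.0991) or without LPS with TM7nox replicate 3 (FDR 0.0668) or 4 (FDR 0.0594), and in replicates 3 and 4 alone the change was -0.11 (FDR 0.378). Mmp12 did not pass at 1.04 (SE 0.698, FDR 0.239), and passed with the replicate block (1.09, FDR 0.0216).

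Some members were over and others under their share of total RNA in the anti-HuR RIP libraries. In LPS, 3 of the 7 tested members were higher in RIP (Plau, Plaur and Mmp14) and 2 lower (Mmp9 and Timp1), where 63.7% of all genes passed (32.9% higher and 30.8% lower). Mmp12 and Mmp13 did not pass. In DMSO, where Mmp13 and Timp1 had too few counts to be called, the same 3 were higher and Mmp9 and Mmp12 lower (70.4% of all genes passed, 37% higher and 33.4% lower), and in LPS with TM7nox the same 3 were higher and Mmp9 and Timp1 lower (69.9%, 35.2% higher and 34.8% lower). With 5 of 7 called in LPS and in LPS with TM7nox, the members' share is close to that of all genes. A RIP over RNA value is read against the bulk of genes in the same libraries and is not an absolute recovery. With relative log expression (RLE) in place of TMM scaling, the median RIP over RNA of all genes moved up by 0.16, 0.18 and 0.22 on the log2 scale in DMSO, LPS and LPS with TM7nox and that of RIP over IgG by 0.13. The number of called members stayed at 5 in each treatment and 6 against IgG, and Serpinb2 in LPS went from −0.17 to 0.01.

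Plau was the tested member with the highest RIP over RNA. Its RIP levels were 3318, 2848, 875 and 673 CPM in DMSO, 742, 628, 534 and 325 CPM in LPS and 975, 1459, 849 and 752 CPM in LPS with TM7nox. Ratios to the same-numbered total RNA library lay between 7.41 and 15.5. The fitted RIP over RNA was 3.27 (SE 0.494) in DMSO, 3.38 (SE 0.497) in LPS and 3.47 (SE 0.499) with TM7nox, with FDRs of 2.27e-06, 2.01e-06 and 1.09e-06. Plaur stood at 308, 167, 90.5 and 72.6 CPM in the RIP libraries of DMSO, at 3165, 2638, 2532 and 1804 CPM in LPS and at 2227, 1871, 2110 and 1759 CPM with TM7nox. Same-numbered ratios lay between 3.18 and 7.60, and RIP over RNA was 2.39 (SE 0.345), 2.25 (SE 0.340) and 2.44 (SE 0.343) in the 3 treatments, with FDRs of 1.14e-06, 3.07e-06 and 7.78e-07.

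Among the 4 metalloproteinases, Mmp14 alone was higher in RIP. Its RIP levels were 0.643, 0.430, 0.212 and 0.301 CPM in DMSO, 34.6, 77.9, 46.0 and 37.5 CPM in LPS and 16.6, 34.6, 14.6 and 17.2 CPM with TM7nox. RIP over RNA was 1.86 (SE 0.331, FDR 2.77e-05) in LPS and 2.53 (SE 0.349, FDR 6.05e-07) with TM7nox. The DMSO value of 1.39 (SE 0.611, FDR 0.0448) rests on 17 and 45 counts (2.15 without DMSO replicate 2 of total RNA), and its call held in 14 of 30 alternatives (highest FDR 0.236). It was lost without DMSO replicate 1 (FDR 0.0752), 3 (0.124) or 4 (0.119) of total RNA and without DMSO replicate 1 (0.169) or 2 (0.0803) of RIP. It was also lost, with FDRs of 0.0502 to 0.0579, without RIP replicates 1, 3 or 4 of LPS or of LPS with TM7nox and without total RNA replicate 1 of LPS or 1 or 3 of LPS with TM7nox, which enter through the shared spread. The 3′ UTR of Mmp14 (593 bases) held no ATTTA, and neither did that of Timp1, which was lower in RIP in LPS. The nonamer was present in Mmp9, lower in RIP, in Thbs1, above its total RNA level, and in Serpinb2, close to its own. Any relation of these motifs to RIP was not tested.

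Mmp9 was lower in RIP in all 3 treatments. It stood at 0.677, 0.463, 0.546 and 1.16 CPM in the RIP libraries of DMSO, at 34.9, 9.77, 28.3 and 34.7 CPM in LPS and at 11.9, 2.91, 8.87 and 4.68 CPM with TM7nox. All 12 same-numbered ratios were below 1, from 0.103 to 0.470. RIP over RNA was -2.24 (SE 0.494, FDR 0.000282), -1.44 (SE 0.390, FDR 0.00233) and -1.68 (SE 0.403, FDR 0.000676). In replicates 1 and 2 alone the LPS and LPS with TM7nox calls were lost (FDR 0.0744 and 0.114). Timp1 stood at 5.60, 5.73, 4.82 and 6.32 CPM in LPS and 0.679, 0.881, 0.679 and 0.540 CPM with TM7nox, and RIP over RNA was -1.62 (SE 0.306, FDR 5.8e-05) and -2.23 (SE 0.364, FDR 6.89e-06). In DMSO it had 3 RIP counts and 5 total RNA counts, too few for a ratio to be read.

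Mmp13 stood at 1.30, 0.315, 1.61 and 2.38 CPM in the RIP libraries of LPS and at 0.340, 0.0678, 0.679 and 0.450 CPM with TM7nox, with no count in any of the DMSO ones. RIP over RNA in LPS was -1.20 (SE 0.694, FDR 0.137), and passed with the replicate block (-1.14, FDR 0.0124) and without LPS replicate 2 of total RNA (-1.56, FDR 0.0487). Mmp12 stood at 0.813, 0.893, 0.607 and 0.0502 CPM in DMSO, at 1.43, 2.00, 1.24 and 0.927 CPM in LPS and at 4.80, 2.51, 1.24 and 0.810 CPM with TM7nox. Its RIP over RNA was -1.73 (SE 0.685, FDR 0.0275) in DMSO. That call was lost without DMSO replicate 4 of RIP (FDR 0.0741) or DMSO replicates 1 or 2 of total RNA (FDR 0.067 and 0.163). It was also lost in replicates 3 and 4 alone (-0.86, FDR 0.277), and 1 of the 4 same-numbered ratios was above 1 (1.57, in replicate 3). RIP over RNA of Mmp12 was -0.67 (SE 0.643, FDR 0.369) in LPS and -0.94 (SE 0.624, FDR 0.183) with TM7nox. The latter passed with the replicate block (-0.99, FDR 0.0194) and was -1.58 without RIP replicate 1 of LPS with TM7nox.

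The 2 members described without a test differed in RIP. Serpinb2 stood at 48.4, 49.1, 98.9 and 77.2 CPM in the RIP libraries of LPS and at 9.68, 8.54, 33.1 and 21.8 CPM with TM7nox, close to its total RNA levels. Its RIP over RNA was -0.17 (SE 0.423) and 0.11 (SE 0.432). Thbs1 stood at 28.7, 29.5, 9.27 and 9.62 CPM in LPS and at 1.57, 1.08, 0.919 and 0.630 CPM with TM7nox, and replicates 1 and 2 were the higher ones in LPS. Its RIP over RNA was 2.88 (SE 0.549) in LPS, 3.60 without LPS replicate 1 of total RNA, and 2.39 (SE 0.741) with TM7nox. Its same-numbered ratios were 4.63 to 12.8 in LPS and 3.69 to 29.0 with TM7nox. The highest of these, in replicate 3, rests on 1 total RNA count. In DMSO, Serpinb2 had 9 RIP and 7 total RNA counts and Thbs1 7 and 0.

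**Figure D3:**
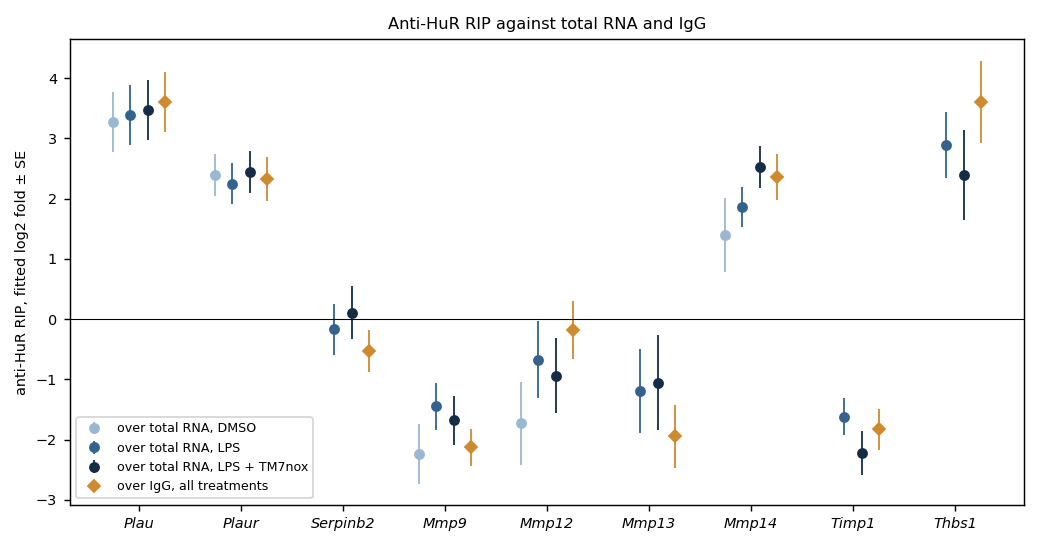
Fitted log2 fold of anti-HuR RIP over total RNA in each treatment (circles) and over IgG across treatments (diamonds), with SEs; DMSO is left out for Serpinb2, Mmp13, Timp1 and Thbs1, which had at most 9 counts in either group. Plau, Plaur, Mmp14 and Thbs1 lie above 0 (3.38, 2.25, 1.86 and 2.88 over total RNA in LPS), Mmp9 and Timp1 below it (-1.44 and -1.62), and Serpinb2 near it (-0.17).

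Against IgG, 3 tested members were higher in anti-HuR and 3 lower. The fit over 12 RIP and 3 IgG libraries with treatment as a covariate put Plau (3.61, SE 0.499, FDR 2.77e-06), Mmp14 (2.36, SE 0.385, FDR 2.12e-05) and Plaur (2.33, SE 0.367, FDR 1.38e-05) higher in anti-HuR. Mmp9 (-2.13, SE 0.311, FDR 5.48e-06), Mmp13 (-1.94, SE 0.523, FDR 0.00282) and Timp1 (-1.83, SE 0.340, FDR 9.22e-05) were lower in anti-HuR than in IgG. Like RIP over RNA, these values are read against the bulk of genes in each library and do not give the amount that either antibody recovered. Mmp12 did not pass (-0.18, SE 0.482, FDR 0.75), and 68.1% of all genes passed, 33.8% higher and 34.2% lower. The IgG libraries held 90.2, 61.5 and 91.6 CPM of Plau and 3.09, 110 and 32.0 CPM of Mmp9 in DMSO, LPS and LPS with TM7nox. For Mmp9 these are 0.961, 1.27 and 1.23 times replicate 3 of total RNA, while its anti-HuR libraries lay below both. For Thbs1 the IgG libraries held 0.0260, 1.37 and 0.0860 CPM, and the fitted difference was 3.60 (SE 0.686), 2.73 without the IgG library of LPS and 2.61 in replicate 3 alone. For Serpinb2 they held 0.0779, 113 and 22.1 CPM, and the difference was -0.53 (SE 0.350), 0.17 in replicate 3 alone and 0.11 with the replicate block.

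Within the RIP libraries, LPS against DMSO again gave 5 tested members higher (Plaur, Mmp9, Mmp13, Mmp14 and Timp1) and Plau lower, where 44.7% of all genes passed (23.5% higher and 21.2% lower). Here too Mmp13 and Timp1 had no DMSO library at the filter's level (0.311 CPM) and Mmp14 had 2 of 4. The FDRs of Mmp13 and Timp1 are therefore not read as support for a rise. Plaur rose by 3.96 (SE 0.394, FDR 7.85e-07), Mmp9 by 5.26 (SE 0.505, FDR 5.34e-07) and Mmp14 by 6.89 (SE 0.426, FDR 4.69e-09), and Plau changed by -1.82 (SE 0.444, FDR 0.0035). Timp1 went from 3 counts over the DMSO group to 432, a ratio of 210 with a counting interval of 71.4 to 1022, and passed (FDR 2.23e-08). All 3 DMSO counts were in replicate 2, and without it the fitted change went from 7.43 to 9.90. Mmp13 was 51.5-fold higher in LPS at the floor of 3 counts, with a 95% lower counting limit of 41.2-fold (FDR 7.21e-05). Mmp12 did not pass at 1.18 (SE 0.583, FDR 0.112), and passed with the replicate block (1.26, FDR 0.0107). Serpinb2 went from 9 counts to 5223 and Thbs1 from 7 to 1528, described without a test.

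TM7nox with LPS lowered Mmp9, Mmp14 and Timp1 in RIP too, 3 of the 7 tested members, where 16.2% of all genes passed (8.64% higher and 7.61% lower). Timp1 changed by -3.05 (SE 0.376, FDR 7.41e-05), Mmp9 by -1.95 (SE 0.415, FDR 0.00472) and Mmp14 by -1.28 (SE 0.310, FDR 0.0104), lower in 4 of 4 same-numbered pairs for each. With the replicate block 5 members passed, as with no filter on low counts, since Mmp13 (-1.83, FDR 0.00593) and Plau (0.87, FDR 0.014) joined, and without the block they stood at -1.85 (SE 0.637, FDR 0.065) and 0.81 (SE 0.434, FDR 0.223). Mmp13 also passed without LPS replicate 2 (-2.16, FDR 0.0229) and with DESeq2 (-1.88, FDR 0.0408). In replicates 1 and 2 alone only Timp1 passed, with Mmp14 at -1.17 (FDR 0.113) and Mmp9 at -1.61 (FDR 0.152). Plaur did not pass at -0.40 (SE 0.350, FDR 0.478), nor did Mmp12 at 0.72 (SE 0.555, FDR 0.409). Serpinb2 changed by -1.95 (SE 0.377) and Thbs1 by -4.20 (SE 0.476), without a test.

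Whether RIP over RNA itself shifted between treatments was tested directly as an interaction over the 24 total RNA and RIP libraries. For LPS against DMSO, Mmp13 and Timp1 had too few DMSO counts for the test to bear on them. None of the other 5 members passed there, and none of the 7 for LPS with TM7nox against LPS, by edgeR's quasi-likelihood test, none had an unadjusted p under 0.05, and DESeq2 called none. Across all 14311 genes, 0.0419% passed for LPS (0.014% higher and 0.028% lower) and 0.00699% for TM7nox, all of it higher. With LPS, the change was 0.11 for Plau (interval of 2 SEs, -1.17 to 1.39), -0.15 for Plaur (-1.07 to 0.78), 0.79 for Mmp9 (-0.45 to 2.04) and 0.46 for Mmp14 (-1.08 to 2.00). It was 1.05 for Mmp12 (-0.81 to 2.92). With TM7nox, it was 0.09 for Plau (-1.20 to 1.37), 0.19 for Plaur (-0.73 to 1.11), 0.67 for Mmp14 (-0.26 to 1.60), -0.24 for Mmp9 (-1.34 to 0.86), -0.61 for Timp1 (-1.54 to 0.33), -0.27 for Mmp12 (-2.06 to 1.53) and 0.14 for Mmp13 (-2.07 to 2.35). The intervals are wide enough that changes of about 1 on the log2 scale could not be detected for most of these genes.

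**Figure D4:**
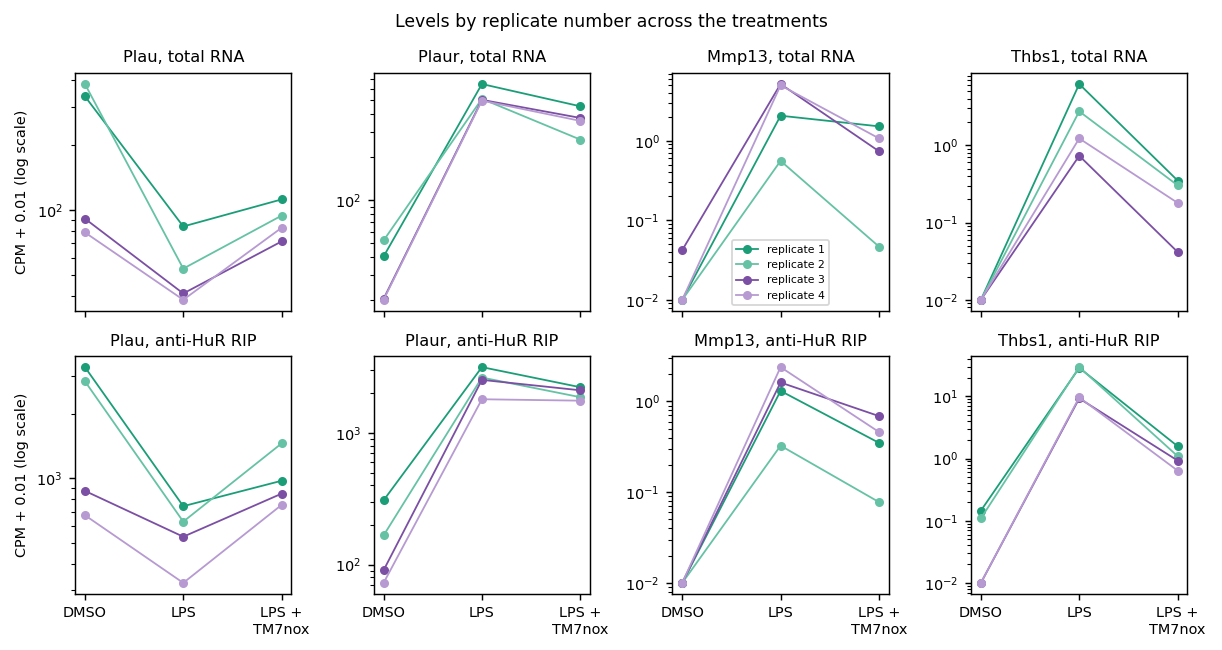
CPM plus 0.01 on a log axis for Plau, Plaur, Mmp13 and Thbs1 across the 3 treatments in total RNA (top) and anti-HuR RIP (bottom); each line joins libraries of the same replicate number. Replicates 1 and 2 of Plau start at 337 and 384 CPM in DMSO total RNA and replicates 3 and 4 at 91.2 and 78.7 CPM, and the same 2 numbers are higher in RIP.

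The members differed by replicate number in a way that recurred across treatments and assays. Plau, Plaur, Thbs1 and Mmp12 were higher in replicates 1 and 2 in several groups, and Serpinb2 in replicates 3 and 4. In DMSO, Plau averaged 361 CPM in replicates 1 and 2 of total RNA and 84.9 CPM in 3 and 4, and 3083 and 774 CPM in RIP. Serpinb2 in LPS averaged 48.2 and 104 CPM in total RNA. The labels name no batch that these numbers stand for.

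Other genes of the same systems were taken from 4 lists. Over all genes, 20.2% were higher and 21.7% lower under LPS, and 7.37% and 6.4% with TM7nox against LPS. Which list genes passed the filter on low counts only through a group where they were high was not examined. The numbers called are therefore not read against those shares, and large fitted changes are given without the counts behind them. Of the 15 genes of the plasminogen system, 8 were tested in total RNA, and LPS raised 3 and lowered 1, with a list median of 0.65 against -0.04 over all genes. F3, tissue factor, rose by 5.30 (SE 0.476, FDR 8.27e-07) and Procr, the protein C receptor, by 3.45 (SE 0.441, FDR 2.49e-05). Lrp1, an uptake receptor for protease and inhibitor complexes, changed by -0.90 (SE 0.220, FDR 0.00451). With TM7nox against LPS, Procr rose a further 2.88 (SE 0.376, FDR 0.000202), F3 changed by -1.74 (SE 0.356, FDR 0.00483) and the other 6 did not pass (list median -0.14).

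Of 24 other serpins, 9 were tested, and LPS raised 5 and lowered none (median 1.34). Serpina3f rose by 9.59 (SE 0.947, FDR 2.13e-06), Serpinb9, a granzyme B inhibitor, by 2.51 (SE 0.429, FDR 0.000296), Serpinb6b by 2.38 (SE 0.649, FDR 0.0087) and Serpinc1, antithrombin, by 2.15 (SE 0.505, FDR 0.00339). With TM7nox against LPS, 4 rose and 1 fell (median 0.58). Serpinb1b rose by 2.92 (SE 0.591, FDR 0.0046), Serpinb9b by 2.45 (SE 0.580, FDR 0.0117) and Serpinb9 by 2.08 (SE 0.389, FDR 0.0026), and Serpinb8 changed by -1.08 (SE 0.296, FDR 0.0257). Serpinb2, of the same clade, stood lower with TM7nox as given above.

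Of 36 other metalloproteinases and inhibitors, 11 were tested, and LPS raised 2 and lowered 1 (median 0.14). Adamts4, an aggrecanase, rose by 4.69 (SE 0.623, FDR 3.51e-05) and Adamts1 by 1.20 (SE 0.406, FDR 0.0281), and Adam10, a sheddase, fell by 0.95 (SE 0.169, FDR 0.000434). None of the 11 passed with TM7nox against LPS (median -0.11) by edgeR's quasi-likelihood test. Of 15 thrombospondins, receptors and partners, 11 were tested, with 4 higher and 2 lower under LPS (median 0.74). Sdc4, a syndecan, rose by 3.47 (SE 0.257, FDR 1.31e-07), Itga5 by 2.74 (SE 0.442, FDR 0.000187), Cd47, a thrombospondin receptor, by 1.62 (SE 0.161, FDR 2.24e-06) and Tgfb1 by 1.37 (SE 0.159, FDR 1e-05). With TM7nox, Sdc4 changed by -0.79 (SE 0.234, FDR 0.0378), Tgfb1 by -0.63 (SE 0.156, FDR 0.0154) and Comp, a thrombospondin family member, by 3.71 (SE 0.949, FDR 0.0182) after -3.58 (SE 0.966, FDR 0.00819) under LPS.

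**Figure D5:**
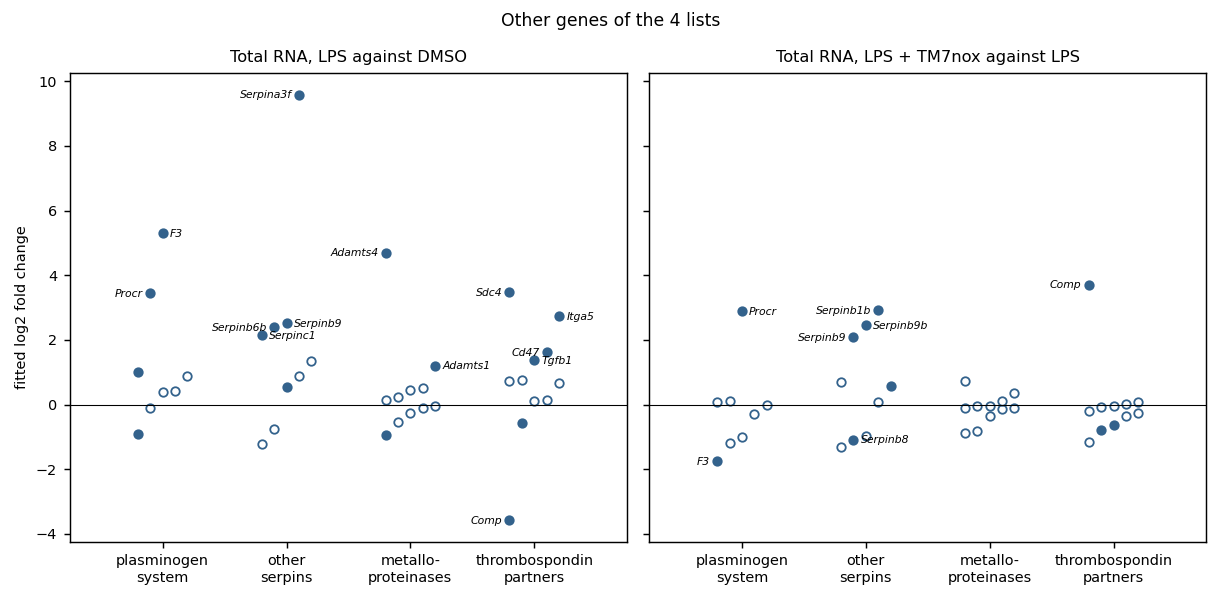
Fitted log2 fold change in total RNA of each tested gene of the 4 lists, for LPS against DMSO (left) and LPS with TM7nox against LPS (right); filled points passed an FDR of 0.05, and those of at least 1 in size are named. Serpina3f (9.59) and F3 (5.30) are the highest under LPS, and with TM7nox Comp (3.71), Serpinb1b (2.92) and Procr (2.88) are the highest.

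For each member, the 3 genes with the most alike profile were found over the 12 total RNA libraries, by the root mean square difference of log2 CPM after centring each gene, among 8622 genes. Plaur was closest to Stk40 (0.345), Slfn4 (0.363) and Smim3 (0.401). Timp1 was closest to Cd69 (0.454), Slc28a2 (0.569) and Slc7a2 (0.604), and Plau to Fmn1 (0.465), Xpr1 (0.493) and Plcb4 (0.510). Mmp12 was closest to Bc1 (0.530), Mmp14 to Ms4a4c (0.542), Mmp9 to Cebpd (0.561) and Serpinb2 to Lipg (0.723), ahead of Il1a (0.837) and Edn1 (0.845). Thbs1 and Mmp13, on few counts, had no gene as close: Thbs1 was closest to Ccr1 (0.949) and Cebpd (0.951), and Mmp13 to another member, Mmp9 (0.953).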

How the data were processed

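Total RNA, anti-HuR RIP RNA and IgG RIP RNA from RAW264.7 cells were read in 27 libraries made with a stranded SMART-Seq kit, per the labels' protocols. The authors deposited 1 table of raw read counts per gene. The submitters' processing notes name FastQC 0.11.9, STAR, HTSeq, DESeq2 and GRCm39; their roles, the annotation release and the strand setting of counting were not given in the sources used here.

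Counts were fitted with edgeR 4.0.16 (R 4.3.3) by the quasi-likelihood test, with TMM scaling, filterByExpr at a minimum count of 10 and Benjamini-Hochberg adjustment over all genes, called at an FDR under 0.05. There were 4 fits: the 12 total RNA libraries, the 12 anti-HuR libraries, all 24 together (RIP over RNA and its change between treatments), and 12 anti-HuR with 3 IgG libraries with treatment as a covariate. CPM is on 1 TMM scale over the 27 libraries. Intervals are at 95% and floors at 3 counts; both cover counting error only. DESeq2 1.42.0, RLE scaling, no filter, the replicate block, each replicate left out and replicate pairs alone were alternatives.

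The numbers pair the samples. Deviations from group means of same-numbered libraries correlated above 0.1 in 12 of 12 pairs within total RNA (0.194 to 0.449) and 12 of 12 within RIP (0.262 to 0.543), and across all 24 libraries in 58 of 60 (0.013 to 0.505). No 2 libraries of a group agreed within sampling noise (chi-square per gene 38 to 213 over 36 pairs, genes with at least 20 counts).

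The members and lists were chosen with earlier results of these data known. All 9 members are named, with up to 4 genes of each list and comparison that passed with a log2 change of at least 1, largest first. Lrp1, Adam10, Tgfb1 and, with TM7nox, Sdc4 fall outside that rule and were chosen after their values were seen. One gene of the plasminogen list was left out of the list and its counts and is not reported here. Likeness was computed with a prior count of 2 among genes with a mean of at least 5 CPM. 3′ UTRs and positions come from GENCODE M39 on GRCm39, and promoters from RefSeq (GRCm38.p6).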

Additional observations from a re-analysis of the deposited data

Results flagged for a closer look

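In 5 of 54 groups of 4 libraries tested, 1 library stood apart from the other 3 by Dixon's test at its 95% critical value, which compares the gap to the nearest library with the group's range. Chance gives about 1 in 20 groups. For Plaur in total RNA of LPS, replicate 1 stood at 646 CPM and the next library at 509, a gap of 0.904 of the range. For Mmp14 in RIP of LPS with TM7nox, replicate 2 stood at 34.6 CPM and the next at 17.2, a gap of 0.869. Serpinb2 in total RNA of DMSO stood at 0.193 CPM in replicate 3 and at 0.0257 in the next, a gap of 0.867. A further pair of groups rested on single libraries with any count, so the gap was the whole range (1): Mmp13 in total RNA of DMSO, with 1 count in replicate 3 (0.0322 CPM), and Timp1 in RIP of DMSO, with 3 counts in replicate 2 (0.0992 CPM).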

How the results depend on the processing

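The number of tested members that passed stayed within 1.5 times the main number in the comparisons of LPS with DMSO, of LPS with TM7nox with DMSO, of anti-HuR with IgG and of RIP over RNA in LPS and in LPS with TM7nox under the alternatives run. It moved further elsewhere. For LPS with TM7nox against LPS in total RNA (3), it was 7 with no filter on low counts, 0 in replicates 1 and 2 alone and 6 in replicates 3 and 4 alone. For the same comparison in RIP (3), it was 5 with no filter and 5 with the replicate block, and 1 in replicates 1 and 2 alone. For RIP over RNA in DMSO (5), it was 3 to 5 with 1 library left out, lowest without DMSO replicate 1 of total RNA. Beyond the calls given above for Mmp12, Mmp13 and Plau and the sign of Serpinb2 against IgG, the replicate block changed no other call. Counts over all genes moved as well. In total RNA, LPS with TM7nox against LPS called 1704 genes, 3050 with the replicate block, 168 in replicates 1 and 2 alone and 3489 in replicates 3 and 4 alone; in RIP it called 2212, and 4565, 789 and 1070 in the same order. Replicates 1 and 2 alone gave 1668 of 5190 for LPS against DMSO and 2246 of 5850 for LPS with TM7nox against DMSO in total RNA, and 3392 of 6090 for LPS against DMSO in RIP. The change of RIP over RNA with LPS called 6 genes, 67 with DESeq2, 49 with no filter, 39 with the replicate block, 0 and 13 in the replicate pairs alone and 11 without DMSO replicate 1 of total RNA; with TM7nox it called 1, and 0 to 5 under the alternatives. The cause of these changes was not tested.

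Directions turned for the following values, on the log2 scale, with that of Thbs1 for the change of RIP over RNA with LPS (-0.89, and 0.032 with DESeq2). Mmp12 under LPS in total RNA was -0.050 with DESeq2, -0.37 in replicates 1 and 2 alone and -0.41 to 0.51 with 1 library left out. In RIP with TM7nox it was -0.061 in replicates 3 and 4 alone. Serpinb2 against IgG was 0.17 in replicate 3 alone and 0.11 with the replicate block. Its RIP over RNA, with 1 library left out, ranged in DMSO from -0.16 to 2.25, in LPS from -0.39 to 0.034 and with TM7nox added from -0.27 to 0.42, and the change with TM7nox was -0.14 to 0.59; it was 0.0083 in LPS with DESeq2 and -0.019 in LPS with TM7nox with no filter. The change of RIP over RNA with LPS was 0.0085 for Plaur with no filter and 0.022 in replicates 3 and 4 alone. With 1 library left out it was -0.30 to 0.81 for Mmp14, -0.35 to 0.50 for Plau and -0.50 to 0.39 for Plaur. The change with TM7nox was -1.06 for Mmp13 and 0.20 for Mmp9 in replicates 1 and 2 alone and -0.10 for Plau in replicates 3 and 4 alone. With 1 library left out it was -0.91 to 0.17 for Mmp12, -0.33 to 0.52 for Mmp13, -0.57 to 0.044 for Mmp9 and -0.16 to 0.29 for Plau. The fitted values that rest on the few DMSO counts of Timp1 and Mmp13 turned as well and cannot be read as sizes. RIP over RNA of Timp1 in DMSO was -0.67, 1.02 in replicates 1 and 2 alone, -3.81 in replicates 3 and 4 alone (FDR 0.0405) and -3.34 without replicate 2 of RIP (FDR 0.0319). Its change with LPS was 2.15 in replicates 3 and 4 alone and -1.34 to 1.72 with 1 library left out, and that of Mmp13 was -0.13 with DESeq2 and -0.049 to 0.74 with 1 library left out. No value could be had in DMSO for RIP over RNA, or for its change with LPS, of Mmp13 in replicates 1 and 2 alone or without DMSO replicate 3 of total RNA, or of Thbs1 in replicates 3 and 4 alone, where no count was left.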
